A study of Mus musculus with 8 samples.

Results

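Potassium channels and voltage-gated sodium channels were followed in whole brains of wild-type (WT) mouse embryos at E14.5 whose mothers had eaten a choline-deficient diet (CDD) or normal chow (ND). The genes were taken from the deposited table by symbol: every protein-coding gene named Kcn followed by letters and a number, or Scn followed by a number and a or b. That gave 105 of 33971 genes, of which 91 encode potassium channels or their subunits and 14 encode sodium channels or their subunits. Long noncoding genes at these loci, such as *Kcnq1ot1*, and the epithelial sodium channel genes *Scnn1a*, *Scnn1b* and *Scnn1g* were left out by the rule.

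Both groups were WT embryos of WT females mated with WT males, with 4 brains from mothers on CDD and 4 from mothers on ND. Per the labels the diets began on the day of time-mating. Neither the strain nor the number of mothers and litters is given for these brains, so brains of 1 diet may be littermates, and p-values measure the spread between these brains only. Messenger RNA was selected by poly-T beads and sequenced in bulk, and 31770217 to 43121170 reads per brain were counted on genes.

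Potassium channels carry outward current that returns a nerve cell to rest, sets its resting potential and limits how often it fires, whereas voltage-gated sodium channels open to start the action potential. In both families a large pore-forming subunit is joined by auxiliary subunits that change its trafficking or kinetics. Young neurons acquire these channels while they mature, and progenitors, which do not fire, express leak and inward-rectifying channels.

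Neuronal and progenitor markers were present in every brain. The summed level of 10 postmitotic neuron markers was 6821 to 7627 CPM (counts scaled to a common library size) in CDD brains and 7010 to 7264 CPM in ND brains, so the sums overlapped, and 2 of the 10 were called lower in CDD. The sum of 10 neural progenitor markers was 2077 to 2405 CPM in CDD brains and 1842 to 1962 CPM in ND brains, with no overlap, and 5 of the 10 were called higher in CDD. A sum of 8 markers of oligodendrocyte precursors and astrocytes was lower in every CDD brain (129 to 149 CPM) than in every ND brain (154 to 173 CPM), with 2 of the 8 called lower. So was the sum of 8 endothelial and mural markers (287 to 302 CPM against 306 to 330.0 CPM, 2 of the 8 called lower), while the sum of 6 peripheral sensory ganglion markers was higher in every CDD brain (99.0 to 119 CPM against 89.1 to 97.6 CPM, 0 of the 6 called by edgeR, also at an unadjusted p under 0.05). Single brains also stood apart. CDD replicate 2 held 122 CPM of 8 caudal hindbrain and spinal cord genes against 3.79 to 7.88 CPM in the other 7 brains, CDD replicate 1 held 556 CPM of 7 choroid plexus markers against 242 to 376 CPM, and ND replicate 3 held 2769 CPM of 5 erythroid genes against 596 to 1482 CPM. The part of these markers in the channel results was not tested. In bulk RNA, fewer cells of a type and less RNA per cell cannot be told apart.

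Channel genes were lower in CDD brains more often than higher. Of the 105 genes, 94 had enough counts to test. By edgeR's quasi-likelihood test at an adjusted p of 0.05, 14 were lower and 1 was higher in CDD, 15 in all. These are 16.0% of the channel genes tested, where 8.83% of all 19367 genes tested were called. The lower calls were 14.9% of channel genes against 4.59% of all genes, and the higher call was 1.06% against 4.24%. The log2 fold change of CDD over ND was below 0 for 76 of 94 channel genes, with a median of -0.165, and for 50.9% of all genes, with a median of -0.00378.

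Every CDD brain lay below every ND brain for 20 channel genes (21.3%, against 7.39% of all genes tested), and above every ND brain for 1 gene (1.06%, against 7.65%). At an unadjusted p under 0.05 there were 31 channel genes lower (33.0%, against 12.1% of all genes tested) and 2 higher (2.13%, against 11.8%) in CDD. The median was -0.165 over 81 tested potassium channel genes (11 lower, 1 higher) and -0.166 over 13 tested sodium channel genes (3 lower, 0 higher). The 11 genes that could not be tested, among them the muscle sodium channel *Scn4a* and the kidney channel *Kcnj1*, had at most 11 counts in a brain. The number of calls, and their share of the channel genes tested, depended on single brains. Without ND replicate 3 the number was 3 (3.16%, against 2.4% of all genes tested). Without ND replicate 4 it was 4 (4.21%, against 3.13%), and without ND replicate 1 it was 6 (6.38%, against 3.5%). Without CDD replicate 1 it was 8 (8.51%, against 6.14%). Without CDD replicate 2, the brain with caudal hindbrain genes, 15 channel genes were called (15.8%, against 7.14% of all genes). Of these, 10 were among the 15 of all brains.

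**Figure D1:**
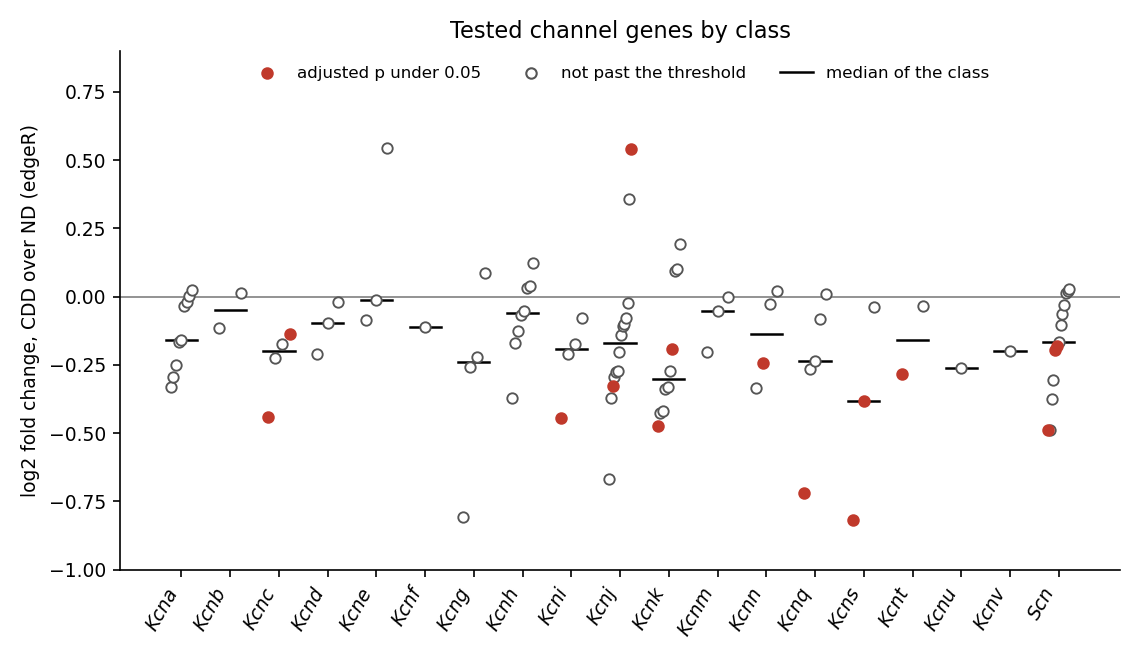
The log2 fold change of CDD over ND (vertical axis, edgeR) is plotted for each of the 94 tested channel genes by class, the letter after Kcn, or Scn; filled points passed an adjusted p of 0.05 and bars are class medians. All 19 class medians lie below 0, and of the 15 filled points only *Kcnj5* lies above it.

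By the letter after Kcn the genes fell into 18 potassium channel classes, with Scn as the last. The median log2 fold change was below 0 in all 19 classes, 3 of which had 1 tested gene, and a gene was called lower in 9 of them. Grouped by what the proteins do, 3 of 28 tested voltage-gated potassium pore genes were lower (median log2 fold change -0.121), as were 2 of 9 silent subunit genes (-0.222), 2 of 8 genes of calcium- or sodium-activated and related channels (-0.148), 1 of 14 inward rectifier genes (-0.171, with 1 more higher), 2 of 10 two-pore-domain genes (-0.301) and 1 of 12 auxiliary potassium channel genes (-0.122). Among sodium channels, 2 of 9 pore genes (-0.105) were lower. Each of these counts is 1 to 3 genes, and those of the inward rectifiers (7.14% lower) and auxiliary subunits (8.33% lower) lay nearest to the 4.59% of all genes.

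*Kcnq5*, *Kcnc4* and *Kcnk1* were the genes called with every brain left out in turn. *Kcnj5* was the single gene called higher, a call kept in 1 of the 8 fits with a brain left out and not made by limma-voom. For *Kcnc4*, *Kcnk1* and *Kcnj5* the RefSeq table (build GRCm38.p6) held a promoter, and the 250 bases before the annotated start are given. No contrast between these promoters was tested. *Kcnq5* was not in the table. Capitals mark GGGCGG, the core of a GC box, or its reverse complement CCGCCC. The windows are chr3:107458899-107459148 on the minus strand for *Kcnc4*, chr8:125994852-125995101 on the plus strand for *Kcnk1* and chr9:32344345-32344594 on the minus strand for *Kcnj5*.
Kcnc4: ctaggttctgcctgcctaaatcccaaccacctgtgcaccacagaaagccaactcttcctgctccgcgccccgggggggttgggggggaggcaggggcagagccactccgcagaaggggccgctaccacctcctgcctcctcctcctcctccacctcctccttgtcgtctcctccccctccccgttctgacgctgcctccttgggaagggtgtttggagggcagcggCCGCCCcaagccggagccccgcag
Kcnk1: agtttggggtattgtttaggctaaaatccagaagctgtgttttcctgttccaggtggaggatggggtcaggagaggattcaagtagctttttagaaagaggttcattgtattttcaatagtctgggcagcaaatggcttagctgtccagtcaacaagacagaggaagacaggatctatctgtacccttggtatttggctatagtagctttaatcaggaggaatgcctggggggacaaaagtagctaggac
Kcnj5: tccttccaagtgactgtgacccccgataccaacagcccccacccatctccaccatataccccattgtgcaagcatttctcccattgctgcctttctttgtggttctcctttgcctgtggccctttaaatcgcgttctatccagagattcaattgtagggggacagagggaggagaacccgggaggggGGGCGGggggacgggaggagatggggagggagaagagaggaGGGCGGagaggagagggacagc

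The *Kcnc4* window was 68.0% G or C and held 1 GC box core, the *Kcnk1* window was 44.4% G or C and held none, and the *Kcnj5* window was 58.0% G or C and held 2. The table held windows for 76 of the 105 channel genes, 10 of them among the 15 called. A gene could have more than 1 window, so the shares below count windows and not genes. On either strand, GGGCGG was in 32.7% of all 32851 windows, 41.7% of the 103 channel gene windows and 40.0% of the 15 windows of called genes. The E-box CAGCTG, which reads the same on both strands, was in 13.0% and 23.3% of the first 2 sets. It was in 3 of the 15 called windows, which belong to *Kcnk2* and *Kcns1* alone. TTCAGCACC, the start of the site of the neuronal repressor *Rest*, was in 0.301% of all windows and 1 channel gene window, that of *Kcnh6*, and TATAAA was in 12.4%, 3.88% and 6.67%. These motifs do not overlap, and they describe the letters of the windows only.

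Voltage-gated potassium pore subunits fell in the Kcnq and Kcnc classes. *Kcnq5* encodes a subunit of the channels that carry the M-current, a slow potassium current that holds a neuron below firing threshold. The table lists it at chr1:21468627-22032166, on a genome build not named in the sources used here. Across replicates 1 to 4, in the order used throughout, *Kcnq5* was at 6.61, 6.69, 7.46 and 7.12 CPM in the CDD brains and 11.3, 9.38, 11.5 and 13.7 CPM in the ND brains. The highest CDD brain was below the lowest ND brain, and the log2 fold change was -0.72 ± 0.10 (SE, edgeR, adjusted p = 0.000902). A processed pseudogene inside *Kcnq5* on the same strand had 483 counts in all against 2566 for *Kcnq5*.

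All 4 Kcnc genes, whose Kv3 channels open and close fast and let neurons fire at high rates, had a log2 fold change below 0, from -0.44 to -0.14. *Kcnc4*, listed at chr3:107345619-107366868 on that same unnamed build, encodes the fast-inactivating member and was at 14.52, 14.6, 15.4 and 13.1 CPM in the CDD brains and 19.7, 18.5, 21.6 and 18.6 CPM in the ND brains. The diets did not overlap, and the log2 fold change was -0.44 ± 0.074 (SE, edgeR, adjusted p = 0.00204). *Kcnc1*, the Kcnc gene with the highest level per length (a mean of 11.0 FPKM, the authors' depth-scaled fragments per kilobase of gene), was at 94.7, 100.3, 100.3 and 102 CPM in the CDD brains and 108, 109, 114 and 106 CPM in the ND brains. Each CDD brain was again below each ND brain, but the log2 fold change was -0.14 ± 0.041 (SE, edgeR, adjusted p = 0.0457), and the call was lost when any of 7 brains was left out. Per length, the summed level of the class was 22.2 ± 0.528 FPKM in CDD and 25.6 ± 0.847 FPKM in ND brains (SD, n = 4).

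No gene was called among the shaker-type Kcna, the delayed-rectifier Kcnb, the A-type Kcnd or the Kcnh genes. *Kcna3*, the Kcna gene with the most FPKM, was at 8.79, 7.21, 8.09 and 12.7 CPM in the CDD brains and 9.30, 9.28, 9.48 and 8.55 CPM in the ND brains. CDD replicate 4 was the highest brain and CDD replicate 2 the lowest, with a log2 fold change of 0.0017 ± 0.14, SE, edgeR, adjusted p = 0.996. *Kcnd3*, an A-type channel that delays the next spike, was at 85.5, 90.9, 88.5 and 103 CPM in the CDD brains and 93.5, 91.3, 93.3 and 95.6 CPM in the ND brains. The 4 CDD brains spanned the ND range on both sides (a log2 fold change of -0.02 ± 0.051, SE, edgeR, adjusted p = 0.852). *Kcnh4*, of the ELK channels, was at 40.8, 36.7, 45.6 and 32.1 CPM in the CDD brains and 41.2, 45.98, 44.8 and 42.8 CPM in the ND brains. CDD replicates 2 and 4 were below the ND range, replicate 1 was just below it and replicate 3 lay within it (a log2 fold change of -0.17 ± 0.086, SE, edgeR, adjusted p = 0.251).

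Silent subunits do not form channels by themselves but join Kv2 subunits and change their gating. *Kcns1* had the most negative log2 fold change of all channel genes and was scarce, at 0.906, 0.666, 0.999 and 1.03 CPM in the CDD brains and 1.67, 1.06, 1.85 and 1.77 CPM in the ND brains. The diets did not overlap, with ND replicate 2 close to the CDD range, and the log2 fold change was -0.82 ± 0.22 (SE, edgeR, adjusted p = 0.0268). *Kcns2* was at 5.77, 5.85, 4.92 and 5.37 CPM in the CDD brains and 7.34, 6.03, 7.49 and 7.65 CPM in the ND brains. Here too the CDD brains were all below the ND brains, ND replicate 2 being the nearest, and the log2 fold change was -0.38 ± 0.11 (SE, edgeR, adjusted p = 0.033). Both calls were lost without ND replicate 1, 3 or 4, that of *Kcns1* also without CDD replicate 1 or 2 and that of *Kcns2* without CDD replicate 3. Together the 3 Kcns genes summed to 1.45 ± 0.053 FPKM in CDD and 2.00 ± 0.307 FPKM in ND brains (SD, n = 4).

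The other silent subunits were not called. *Kcnf1* was at 10.5, 14.6, 13.3 and 13.9 CPM in the CDD brains and 13.9, 12.7, 14.7 and 15.2 CPM in the ND brains. CDD replicate 1 was the lowest brain and the others overlapped (a log2 fold change of -0.11 ± 0.093, SE, edgeR, adjusted p = 0.511). *Kcng1* was at 21.01, 20.1, 23.7 and 22.4 CPM in the CDD brains and 20.3, 20.6, 19.1 and 22.2 CPM in the ND brains. The diets overlapped and the fold change was above 0 (a log2 fold change of 0.09 ± 0.07, SE, edgeR, adjusted p = 0.488). *Kcnv1* was at 8.39, 7.68, 10.1 and 10.9 CPM in the CDD brains and 12.02, 9.91, 10.3 and 10.3 CPM in the ND brains. CDD replicates 1 and 2 lay below the ND range, with a log2 fold change of -0.20 ± 0.11, SE, edgeR, adjusted p = 0.257.

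Channels opened by intracellular calcium or sodium dampen firing after a burst of spikes. *Kcnt1*, a sodium-activated potassium channel, was at 39.7, 44.04, 47.05 and 37.5 CPM in the CDD brains and 47.7, 49.9, 56.6 and 50.99 CPM in the ND brains. CDD replicate 3 was just under the lowest ND brain and the others were further down, and the log2 fold change was -0.28 ± 0.069 (SE, edgeR, adjusted p = 0.0173). The call was lost without CDD replicate 1, ND replicate 3 or ND replicate 4. *Kcnn2*, a small-conductance calcium-activated channel, was at 16.3, 15.04, 15.8 and 13.4 CPM in the CDD brains and 17.2, 19.01, 17.7 and 17.6 CPM in the ND brains. The diets did not overlap, and the log2 fold change was -0.24 ± 0.073 (SE, edgeR, adjusted p = 0.0447); the call was lost without any 1 of 6 brains. Long noncoding genes on the opposite strand within *Kcnn2* had 480 and 344 counts against 4598 for *Kcnn2*, and reads of overlapping genes cannot be told apart where the strand setting is not stated.

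*Kcnn1*, of the same family, was higher per length (mean 6.97 FPKM) and was at 21.9, 34.9, 35.9 and 36.5 CPM in the CDD brains and 29.9, 34.2, 30.7 and 32.9 CPM in the ND brains. CDD replicate 1 was far below the other 7, which overlapped (a log2 fold change of 0.02 ± 0.16, SE, edgeR, adjusted p = 0.962). *Kcnma1*, the pore of the large-conductance BK channel, was at 63.8, 71.9, 66.8 and 73.4 CPM in the CDD brains and 69.9, 67.2, 75.6 and 73.5 CPM in the ND brains. The ranges overlapped, with a log2 fold change of -0.05 ± 0.052, SE, edgeR, adjusted p = 0.58. *Kcnu1*, a relative known from sperm, was at 2.93, 4.00, 3.42 and 3.26 CPM in the CDD brains and 4.59, 4.31, 3.85 and 3.57 CPM in the ND brains. Its diets overlapped in part (a log2 fold change of -0.26 ± 0.13, SE, edgeR, adjusted p = 0.248).

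Inward rectifiers held 1 fall and the single rise. *Kcnj11* encodes Kir6.2, the pore of the ATP-sensitive potassium channel, which closes when ATP is plentiful, and had the most FPKM of its class. *Kcnj11* was at 16.5, 17.99, 21.98 and 18.9 CPM in the CDD brains and 22.2, 25.7, 23.3 and 23.5 CPM in the ND brains. CDD replicate 3 was just under the lowest ND brain, the other CDD brains were clearly lower, and the log2 fold change was -0.33 ± 0.08 (SE, edgeR, adjusted p = 0.0163). It was not called without CDD replicate 1 or ND replicate 2, 3 or 4. Its sulfonylurea receptor partner *Abcc8* had a log2 fold change of -0.23 with an adjusted p of 0.312 in edgeR's test. *Kcnj5* encodes Kir3.4, a subunit of channels opened by G proteins, and is listed at chr9:32226003-32255646 on the same unnamed build as above. It was at 2.72, 3.77, 4.07 and 4.46 CPM in the CDD brains and 2.19, 2.72, 2.95 and 2.46 CPM in the ND brains. CDD replicate 1 lay inside the ND range, so the diets overlapped, while the other 3 CDD brains were above it; the log2 fold change was 0.54 ± 0.16 (SE, edgeR, adjusted p = 0.0401). The call was lost without any 1 of 7 brains, with log2 fold changes of 0.45 to 0.67 over the 8 fits, and was not made by limma-voom.

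Two-pore-domain channels leak potassium at rest and set the resting potential, also in dividing cells. *Kcnk1*, listed at chr8:126721909-126757424, encodes TWIK1 and was at 5.80, 5.33, 5.48 and 5.52 CPM in the CDD brains and 7.67, 7.35, 7.81 and 7.88 CPM in the ND brains. Both groups were tight and far apart, and the log2 fold change was -0.47 ± 0.093 (SE, edgeR, adjusted p = 0.00477). Its fold change over the fits with 1 brain left out was -0.49 to -0.45. *Kcnk2* encodes TREK1, a channel opened by stretch and lipids, and had the most FPKM of its class. *Kcnk2* was at 38.1, 40.5, 43.2 and 44.5 CPM in the CDD brains and 48.2, 44.9, 48.7 and 48.4 CPM in the ND brains. CDD replicate 4 and ND replicate 2 were nearly equal but the diets did not overlap, and the log2 fold change was -0.19 ± 0.056 (SE, edgeR, adjusted p = 0.0392). A processed pseudogene on the same strand within *Kcnk2* had 3146 counts against 12432 for *Kcnk2*, and the call was lost without any 1 of 5 brains.

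Auxiliary potassium channel subunits were lower in part. The Kcnip genes encode calcium-binding proteins that bring Kv4 channels to the membrane, and all 4 had a log2 fold change below 0 (-0.44 to -0.08). *Kcnip2* was at 7.12, 7.45, 7.57 and 5.61 CPM in the CDD brains and 8.95, 8.82, 10.4 and 9.68 CPM in the ND brains. All CDD brains were below all ND brains, with CDD replicate 4 lowest, and the log2 fold change was -0.44 ± 0.10 (SE, edgeR, adjusted p = 0.0127). It was not called without ND replicate 3 or ND replicate 4. *Kcnip3*, the Kcnip gene with the most FPKM, was at 20.6, 23.3, 24.4 and 23.1 CPM in the CDD brains and 26.04, 26.7, 25.8 and 24.7 CPM in the ND brains. The diets did not overlap, but the log2 fold change was -0.18 ± 0.064 (SE, edgeR, adjusted p = 0.093), which misses the threshold. Among the Kcne genes, short single-pass subunits, *Kcne1l* was at 9.18, 9.62, 9.99 and 9.08 CPM in the CDD brains and 9.54, 10.3, 9.46 and 8.90 CPM in the ND brains. Its diets overlapped (a log2 fold change of -0.01 ± 0.083, SE, edgeR, adjusted p = 0.956).

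*Kcne2*, a subunit found in choroid plexus, was the 1 channel gene with every CDD brain above every ND brain. It was at 15.5, 11.1, 7.71 and 7.99 CPM in the CDD brains and 6.99, 7.66, 6.71 and 7.57 CPM in the ND brains. CDD replicate 1 and then CDD replicate 2 were high and the other CDD brains were little above the ND range, and the log2 fold change was 0.54 ± 0.22 (SE, edgeR, adjusted p = 0.17). With 1 brain left out the log2 fold change was 0.31 to 0.67 and *Kcne2* was called in 1 of 8 fits. The choroid plexus marker *Ttr* was at 439, 271, 249.9 and 149 CPM in the CDD brains and 269, 248, 292 and 277 CPM in the ND brains. CDD replicate 1 was the highest brain for both genes, while CDD replicate 4 was the lowest for *Ttr* and above the ND range for *Kcne2*. Other markers differed from *Ttr*. *Clic6* was at 30.0, 23.7, 19.9 and 19.2 CPM in the CDD brains and 16.2, 17.2, 16.7 and 18.6 CPM in the ND brains. *Aqp1* was at 15.2, 13.1, 8.2 and 8.8 CPM in the CDD brains and 6.7, 9.0, 8.4 and 8.2 CPM in the ND brains. Their log2 fold changes were 0.43 and 0.48, not called, and that of *Kl* was -0.22. Of 7 choroid plexus markers, all detected, 1 was called higher, and 6 had a log2 fold change above 0 and 1 below it. Their summed level was 242 to 556 CPM in CDD and 337 to 376 CPM in ND brains, and their part in the *Kcne2* values was not tested.

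**Figure D2:**
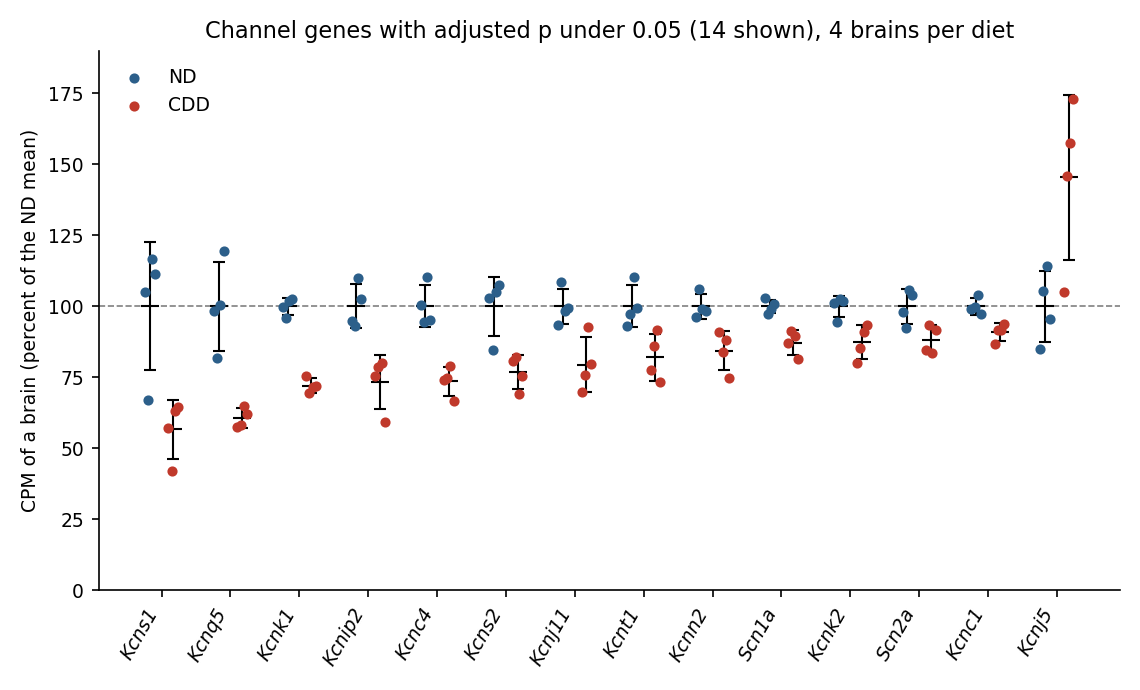
The CPM of each brain as a percent of the ND mean (vertical axis, from 0) are shown for 14 channel genes with an adjusted p under 0.05; points are brains (4 ND and 4 CDD per gene), horizontal marks are means and bars 1 SD. *Kcnk1* has its CDD brains at 69.5 to 75.5% and its ND brains at 95.7 to 103%, while the CDD brains of *Kcnj5* reach from 105% to 173%.

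Of the sodium channel pore genes, *Scn1a* and *Scn2a* were lower in CDD brains, whereas *Scn3a*, the subunit that prevails in fetal brain, and *Scn8a* were not called. *Scn3a* was at 181, 176, 178 and 193 CPM in the CDD brains and 179, 178, 177 and 180.5 CPM in the ND brains. The ranges overlapped, with a log2 fold change of 0.03 ± 0.042, SE, edgeR, adjusted p = 0.746. *Scn8a*, the pore subunit of mature nodes and axon initial segments, was at 116, 115, 119 and 130.4 CPM in the CDD brains and 118, 119, 126 and 127 CPM in the ND brains. These ranges overlapped too, with a log2 fold change of -0.03 ± 0.046, SE, edgeR, adjusted p = 0.742.

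*Scn2a*, which carries action potentials in young unmyelinated axons, was at 76.3, 84.3, 75.2 and 82.7 CPM in the CDD brains and 88.5, 83.2, 95.4 and 93.9 CPM in the ND brains. CDD replicate 2 lay just above the lowest ND brain, the other CDD brains were below all ND brains, and the log2 fold change was -0.18 ± 0.051 (SE, edgeR, adjusted p = 0.0349). *Scn1a*, prominent in inhibitory neurons of the mature brain, was at 25.99, 27.3, 26.7 and 24.3 CPM in the CDD brains and 30.8, 29.1, 29.7 and 30.1 CPM in the ND brains. The diets did not overlap, and the log2 fold change was -0.20 ± 0.058 (SE, edgeR, adjusted p = 0.0398). The call of *Scn2a* was lost without any 1 of 5 brains and that of *Scn1a* without any 1 of 6.

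Per length, *Scn3a* made up 42.6 ± 0.78% of the summed FPKM of the 10 pore genes in CDD brains and 40.5 ± 0.968% in ND brains (SD, n = 4). *Scn2a* made up 18.4 ± 0.818% and 20.2 ± 0.768%, *Scn1a* 6.97 ± 0.552% and 7.73 ± 0.237%, and *Scn8a* 22.6 ± 0.697% and 22.4 ± 0.368%. The summed level was 33.5 ± 1.38 FPKM in CDD and 34.5 ± 0.839 FPKM in ND brains, and the ranges overlapped. The log2 ratio of *Scn2a* to *Scn3a* was -1.27, -1.08, -1.26 and -1.24 in the CDD brains and -1.03, -1.11, -0.91 and -0.96 in the ND brains. CDD replicate 2 lay inside the ND range and the other CDD brains below it. The means differed by -0.21 (exact two-sided permutation test, p = 0.0571, adjusted over 2 ratios p = 0.114, with 0.0286 the smallest p that 4 against 4 brains can give). For *Scn8a* to *Scn3a* the difference was -0.06 (exact permutation p = 0.143, adjusted p = 0.143), so neither ratio differed beyond the threshold.

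**Figure D3:**
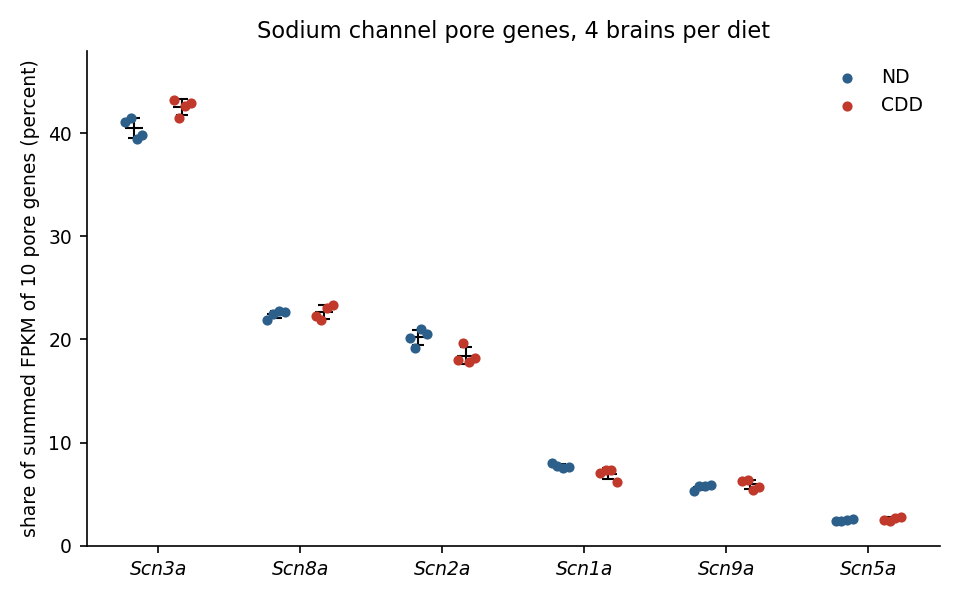
The share of each gene in the summed FPKM of 10 sodium channel pore genes (percent, vertical axis from 0) is plotted per brain for the 6 genes with the highest shares; points are brains, horizontal marks means and bars 1 SD. *Scn3a* holds the largest share, 39.5 to 41.5% in ND and 41.5 to 43.2% in CDD brains, and *Scn2a* holds 19.2 to 21.0% and 17.9 to 19.6%.

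Beta subunits anchor sodium channels and speed their opening and closing. *Scn3b*, the channel gene with the highest level per length (mean 34.0 FPKM), was at 166, 194, 182 and 189 CPM in the CDD brains and 186, 179, 202 and 196 CPM in the ND brains. CDD replicate 1 was the lowest brain and the diets overlapped (a log2 fold change of -0.06 ± 0.052, SE, edgeR, adjusted p = 0.497). 

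**Figure D4:**
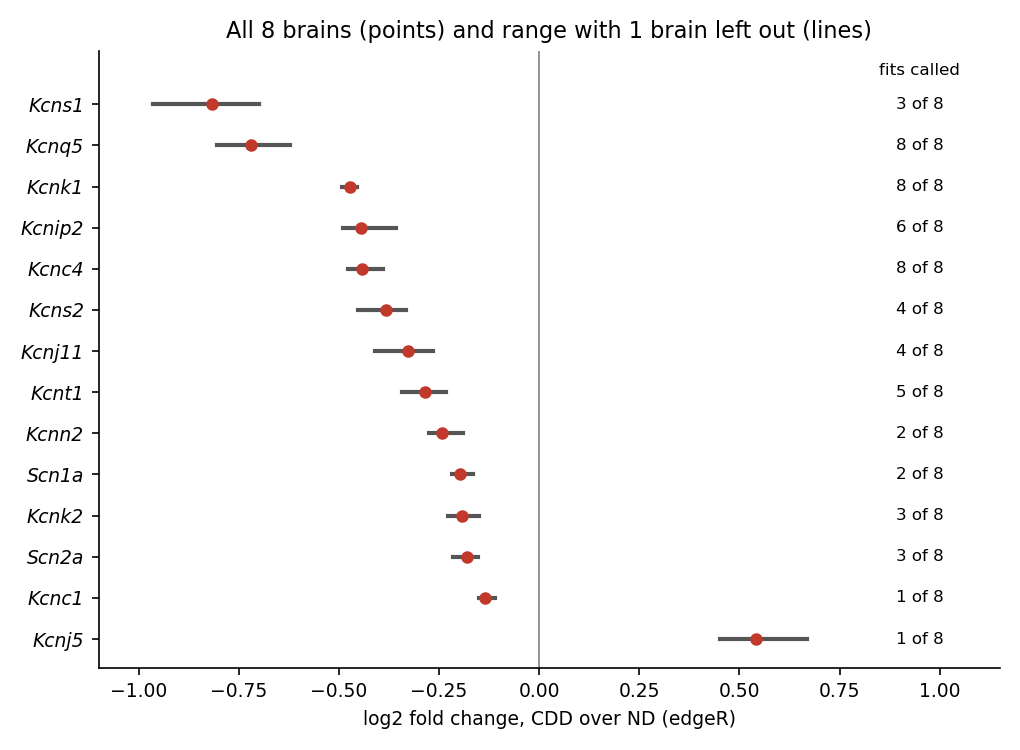
Points give the log2 fold change of CDD over ND (horizontal axis, edgeR) of 14 called channel genes with all 8 brains, lines the range over the 8 fits that leave out 1 brain, and the numbers at the right how many of those fits called the gene. No line crosses 0, and 3 genes (*Kcnq5*, *Kcnk1* and *Kcnc4*) were called in all 8 fits.

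Called genes were found at low and at high levels per length. Their median level was 2.50 FPKM, against 1.78 FPKM for tested channel genes that were not called and 3.90 FPKM for all tested genes. The 3 highest called genes per length were *Kcnc1*, *Kcnk2* and *Scn2a*, with log2 fold changes of -0.14, -0.19 and -0.18, while the largest falls, of *Kcns1* and *Kcnq5*, were in genes with means of 0.58 and 1.48 FPKM in ND brains.

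Genes that anchor, drive or work beside these channels were read from a list of 44 partner genes, drawn up with earlier results of these data known. Of these, 43 were found and tested. In CDD brains 8 were lower and 0 higher (edgeR's quasi-likelihood test; 15 lower and 1 higher at an unadjusted p under 0.05), or 18.6% lower against 4.59% of all genes tested, with a median log2 fold change of -0.0864. At the unadjusted p the shares were 34.9% lower and 2.33% higher, against 12.1% and 11.8% of all genes. *Hcn2*, a pacemaker channel, fell by 0.40 on the log2 scale (adjusted p = 0.00447, edgeR), from 20.9 ± 1.66 to 15.8 ± 1.47 CPM (SD, n = 4). *Sptbn4*, the spectrin of the axon initial segment where sodium and Kcnq channels are held, fell by 0.31 (adjusted p = 0.00575, edgeR). The potassium-chloride transporter *Slc12a5*, which lowers chloride in maturing neurons, fell by 0.29 (adjusted p = 0.00316, edgeR).

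The sodium pump restores the gradients that these channels spend. Its subunit genes *Atp1b1* and *Atp1b2* fell by 0.31 and 0.30 on the log2 scale (adjusted p = 0.024 and 0.00156, edgeR), while *Atp1b3*, at a log2 fold change of 0.04, was not called (adjusted p = 0.664, edgeR). The sodium-calcium-potassium exchanger *Slc24a3* fell by 0.32 (adjusted p = 0.00344, edgeR) and *Dlg2*, a scaffold that clusters potassium channels, by 0.25 (adjusted p = 0.00957, edgeR). *Ank3*, which anchors sodium channels at the initial segment, was not called (log2 fold change 0.10, adjusted p = 0.318), nor was the repressor *Rest* (0.09, adjusted p = 0.366). Every CDD brain was below every ND brain for 11 of the 43 partner genes (25.6%, against 7.39% of all genes tested). Every CDD brain was above every ND brain for 1 (2.33%, against 7.65%). The 11 hold all 8 called partner genes, which were called on these same brains. Of the 8 called genes, 6 were called with every brain left out in turn, *Dlg2* in 7 and *Atp1b1* in 4 of the 8 fits.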

How the data were processed

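Whole brains of 8 WT embryos (4 per diet) were grouped by the maternal diet in their labels. The deposited files hold unnormalized counts for each brain, and FPKM values that the authors made from counts divided by 1 size factor per library and by gene length. The table also holds the authors' log2 fold changes and p-values, which were not used. The submitters' processing notes name HISAT2 2.0.5, featureCounts 1.5.0-p3 and DESeq2 1.20.0; genome build, annotation and strand setting are not given in the sources used here.

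The 33971 genes were reduced to 19367 by filterByExpr (edgeR 4.0.16). With TMM factors and diet as the only term, edgeR's quasi-likelihood test (robust) was run on them, and calls needed a Benjamini-Hochberg adjusted p under 0.05 over all genes tested. CPM values use the TMM-scaled library size, and FPKM was used to compare levels between genes, to sum genes of a class and to form shares and ratios of genes within a brain. The Scn ratios were compared by an exact permutation test of the log2 FPKM ratio. Alternatives were RLE and upper-quartile scaling, no filter, at least 10 counts in every brain, an adjusted p under 0.01, limma-voom (limma 3.58.1), DESeq2 1.42.0, a replicate block and leaving out each brain. Totals were 31770217 to 43121170 counts per brain, which covers sampling of reads, and no library was a copy of another. On simulated counts the test called 155 of 196 changed genes and 10 unchanged genes. The smallest simulated log2 change was 0.5, where 51 of 78 genes were called, so smaller changes were not checked. Software was matplotlib 3.10.9, SciPy 1.17.1, NumPy 2.4.6, pandas 2.3.3, Python 3.11.15 and R 4.3.3.

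The channel genes, partner genes and markers were chosen with earlier results of these data known. Values in every brain are given for called channel genes, for the gene with the highest mean FPKM in each class and for *Scn1a*, *Scn2a*, *Scn3a* and *Scn8a*. *Kcne2*, *Ttr*, *Clic6*, *Aqp1* and *Kl* were added after their values were seen. So were *Abcc8*, *Atp1b3*, *Ank3*, *Rest* and the grouping by protein role. Called partner genes were named. A few genes that these rules name are not reported here. Promoter windows came from RefSeq (GRCm38.p6); gene positions are as the authors list them.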

Additional observations from a re-analysis of the deposited data

Results flagged for a closer look

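Each group of 4 brains was examined for a single brain far from the others, for the CPM of the named channel genes and for both Scn ratios. Of 68 groups, 3 held such a brain, where chance gives about 3.4. ND replicate 2 was low for *Kcnk2* (44.89 CPM, against 48.2 to 48.7 CPM in the other ND brains). CDD replicate 1 was low for *Kcnn1* (21.92 CPM, against 34.9 to 36.5 CPM in the other CDD brains). CDD replicate 2 was high for the log2 ratio of *Scn2a* to *Scn3a* (-1.08, against -1.27 to -1.24 in the other CDD brains).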

How the results depend on the processing

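The number of channel genes called was 15 (16.0% of those tested, against 8.83% of all genes). Under other tests, scalings and filters it was 14 to 18. It was 16 of 79 tested with DESeq2 (20.3%, against 13.9% of all genes) and 14 with RLE (14.9%, against 8.56%). It was 16 with upper-quartile scaling (17.0%, against 8.57%) and 14 with limma-voom (14.9%, against 8.41%). With at least 10 counts in every brain it was 16 (17.8%, against 9.92%). With no filter it was 18 of 105 (17.1%, against 6.99%). At an adjusted p under 0.01 it was 3, all lower and 0 higher, and all genes called fell from 1710 to 477 (211 higher, 266 lower). Leaving out 1 brain gave 3 to 15 channel genes, with 3 to 15 lower and 0 to 1 higher. The same fits gave 471 to 2495 of all genes, 204 to 1222 higher and 267 to 1273 lower, and 6 to 11 partner genes. The single higher gene, *Kcnj5*, was not called by limma-voom (0 higher), and without a filter there were 2 higher. The median log2 fold change of channel genes stayed between -0.173 and -0.141 under every alternative, and no called gene changed sign. Of the genes given that were not called, those with fold changes near 0 did. *Kcna3* turned to -0.03754 by limma-voom, -0.02144 with the replicate block and -0.002787 with upper-quartile scaling, and *Kcnn1* to -0.001078 by limma-voom and -0.003572 with the block. With 1 brain left out the log2 fold change was -0.191 to 0.1015 for *Kcna3*, -0.0825 to 0.01604 for *Kcnd3*, -0.0436 to 0.02835 for *Kcne1l*, -0.04221 to 0.1681 for *Kcnn1* and -0.002896 to 0.04518 for *Scn3a*.

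Same-numbered brains of the diets deviated from their group means with correlations of 0.173, -0.262, 0.197 and 0.321, so the numbers were not taken as pairs. With a replicate block, 13 channel genes were called (13.8%, against 9.36% of all genes). *Kcnd2* was added, and *Kcnc1*, *Kcnn2* and *Scn1a* were lost. Among the 15 called genes, *Kcnc1* was also lost under RLE, limma-voom and no filter. The ratio of *Scn2a* to *Scn3a* differed by -0.251 to -0.1762 and that of *Scn8a* to *Scn3a* by -0.07827 to -0.0406 with 1 brain left out. At this depth the 11 untested genes, with at most 11 counts in a brain, could not be compared.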
